A study of Mus musculus with 12 samples.

Results

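The 10 genes described here make, remodel or recycle phosphatidylcholine and phosphatidylethanolamine, the main phospholipids of liver membranes. They were chosen by name for their place in these pathways, and all 10 are among the 21936 genes of the deposited table and passed the filter on low counts in every comparison. Mouse liver RNA was sequenced in 3 groups with 3 libraries each, and the 3 samples of a further group, hADMSCs, were not analysed here. Every group consisted of male C57BL/6 mice, 6 weeks of age on arrival, that were injected intraperitoneally with carbon tetrachloride (CCl4), a hepatocyte poison, at 1 mL/kg 2 times a week over 8 weeks, so no library comes from an uninjured liver. Livers of the liver fibrosis group (LFG) were taken when the CCl4 course ended. Mice of the regression group (REG) were kept for a further 4 weeks with tail vein injections of 200 µL phosphate-buffered saline, given 2 times in each week. The hADMSCs-Exo mice had the same schedule and volume, with 250 µg of exosome protein from cultured human adipose-derived mesenchymal stem cells. The table heads the columns read as this group only with an abbreviation that the labels do not spell out, so the hADMSCs-Exo values rest on that reading. Because LFG livers were taken earlier, the time since CCl4, the age of the mice and the tail vein injections cannot be told apart in any comparison with LFG. The labels do not say that each library is a separate mouse, so the p-values measure the spread between these samples, part of which may be technical.

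Phosphatidylcholine is built in hepatocytes along the CDP-choline (Kennedy) pathway, in which choline is taken up, phosphorylated, activated to CDP-choline and joined to diacylglycerol. A parallel pathway makes phosphatidylethanolamine from ethanolamine, and the liver can also methylate phosphatidylethanolamine to phosphatidylcholine. Acyltransferases then exchange the fatty acids of the finished lipid, and diesterases return choline from its breakdown products.

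The last step of the choline branch has a pair of enzymes. Chpt1 encodes choline phosphotransferase, which makes phosphatidylcholine alone, and Cept1 encodes an enzyme that accepts CDP-choline and CDP-ethanolamine. Chka encodes choline kinase alpha, which carries out the first committed step. Chpt1 and Chka were the members with the largest differences between hADMSCs-Exo and REG, and Cept1 differed least between libraries, so the promoters of these 3 genes are shown, each from 250 bases before to 50 bases after a transcript start (RefSeq, GRCm38.p6, 5′ to 3′ on the gene's strand). Capitals mark matches, on either strand, to the GC box GGGCGG or the CCAAT box CCAAT.
Chpt1, chr10:88503921-88504220, minus strand: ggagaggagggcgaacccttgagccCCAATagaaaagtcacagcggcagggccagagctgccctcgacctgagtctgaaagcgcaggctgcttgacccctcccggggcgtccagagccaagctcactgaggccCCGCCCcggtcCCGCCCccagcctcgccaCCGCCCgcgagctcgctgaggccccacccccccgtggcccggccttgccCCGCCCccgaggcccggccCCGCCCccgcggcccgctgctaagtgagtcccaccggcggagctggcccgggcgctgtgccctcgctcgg
Cept1, chr3:106547753-106548052, minus strand: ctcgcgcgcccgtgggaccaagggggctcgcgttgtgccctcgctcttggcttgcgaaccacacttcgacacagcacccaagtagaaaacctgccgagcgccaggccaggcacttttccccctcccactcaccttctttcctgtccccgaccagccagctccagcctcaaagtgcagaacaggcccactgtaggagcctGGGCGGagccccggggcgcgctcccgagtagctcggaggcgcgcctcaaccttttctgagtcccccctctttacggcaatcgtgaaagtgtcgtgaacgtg
Chka, chr19:3851523-3851822, plus strand: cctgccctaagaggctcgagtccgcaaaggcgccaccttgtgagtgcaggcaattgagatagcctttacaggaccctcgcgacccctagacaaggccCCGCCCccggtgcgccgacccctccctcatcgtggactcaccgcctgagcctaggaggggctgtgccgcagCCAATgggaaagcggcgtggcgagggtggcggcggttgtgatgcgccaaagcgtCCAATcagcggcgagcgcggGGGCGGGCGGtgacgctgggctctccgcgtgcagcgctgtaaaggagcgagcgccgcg
The Chpt1 window held 5 GC boxes and 1 CCAAT box, and 75.3% of its bases were G or C. The Chka window held 3 GC boxes, of which a pair overlapped, and 2 CCAAT boxes, with 68.7% G or C. The Cept1 window shown, whose transcript start is the gene's start in the deposited table and which is 1 of 3 for this gene, held 1 GC box and 0 CCAAT boxes, with 64% G or C. The other Cept1 windows held 3 GC boxes (66% G or C) and 1 CCAAT box (27.3%). RefSeq gave windows for 8 of the 10 members, 14 windows in all. Of these, 10 held a GC box and 5 a CCAAT box, and 0 held the E-box CACGTG. Windows of 1 gene can share bases, as those of Slc44a1 do (starts at 53440163 and 53440166), so the same match can be counted more than once. Among all 32851 windows of the reference, 35.7% held a GC box, 37.4% a CCAAT box and 7.15% an E-box. In the 14 windows no base belonged to matches of more than 1 motif. These matches describe letters only.

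Total counts per library were 13837445 to 19840917. LFG replicate 3 stood apart from the other libraries. It had the fewest genes with a count (13924, against 14539 to 15248 elsewhere), and its summed level of 11 stellate cell and myofibroblast markers was 34.8 normalised CPM (counts relative to the library total after TMM scaling), against 748 and 1237 in the other LFG libraries. Its median deviation of genes under 2000 bases was 0.34 on the log2 scale, against -0.27 in both other LFG libraries. Tests against LFG were therefore run with and without LFG 3. Markers of hepatocytes were abundant in all 9 libraries, with a summed level of 6 genes between 80247 and 165015 normalised CPM, and 0 of the marker genes checked was without a count in every library. In bulk RNA, fewer cells of a type cannot be told apart from less RNA per cell.

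Per length, in FPKM (counts relative to gene length and to the library's total), Pemt and Pcyt2 stood far above the other members in every group. In REG, Pemt had 172 ± 12.5 (SD, n = 3) and Pcyt2 116 ± 9.14 FPKM, followed by Lpcat3 with 30.5 ± 2.01. Cept1 (15.6 ± 0.705), Gpcpd1 (14.9 ± 2.22) and Chpt1 (12.6 ± 2.42) were close to each other, and neighbours among these 3 overlapped. Pcyt1a (8.78 ± 1.85), Slc44a1 (5.12 ± 0.439), Etnk1 (3.72 ± 0.552) and Chka (1.46 ± 0.200) came last in REG, without overlap between neighbours. Pemt and Pcyt2 led and Chka came last in LFG and hADMSCs-Exo as well. The order changed in the middle: in hADMSCs-Exo, Gpcpd1 (21.3 ± 4.77 FPKM) and Chpt1 (19.2 ± 2.20) stood above Cept1 (17.0 ± 0.721), and Chpt1 did not overlap with Cept1 there, whereas in REG and LFG Cept1 had the higher mean. The order between genes depends on the deposited gene lengths.

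**Figure D1:**
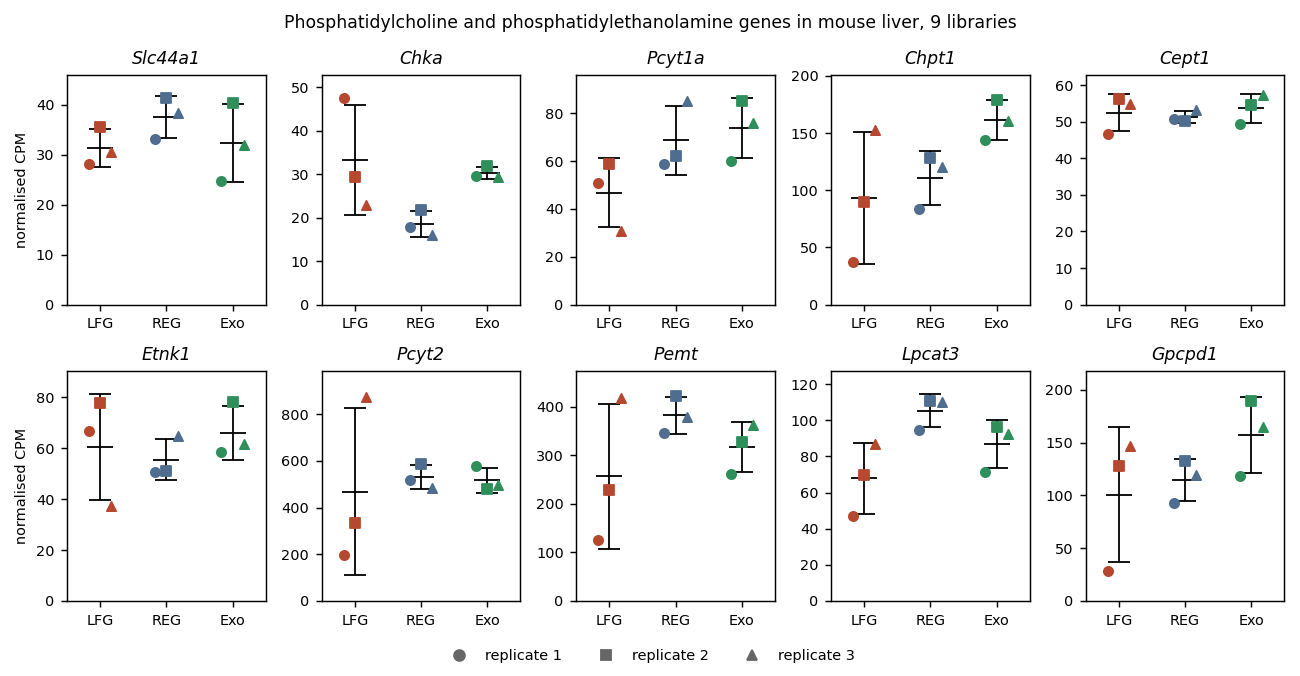
Level of each of the 10 genes in normalised CPM (vertical axis from 0, own scale per gene) in the 9 libraries; symbols give the replicate number and the bars the mean ± SD of 3 libraries. Chpt1 and Chka in hADMSCs-Exo (Exo) lie above all REG libraries, and the LFG libraries of Chpt1, Pcyt2, Pemt and Gpcpd1 spread widest.

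hADMSCs-Exo was compared with REG to ask what the exosomes added to recovery with saline. By edgeR's quasi-likelihood test (Benjamini-Hochberg adjusted over 12337 genes), 0 of the 10 members passed both thresholds, an adjusted p under 0.05 and a log2 fold change of 1 or more in either direction, where 0.00811% of all genes did. At an unadjusted p under 0.05 there were 2 members, both higher in hADMSCs-Exo, against 10.0% of all genes. DESeq2 and limma with voom also called 0 members, beside 0.423% and 0.0243% of all genes. The same 2 members, Chka and Chpt1, were higher in every hADMSCs-Exo library than in every REG library, a pattern seen in 8.07% of all genes, and 0 members were lower without overlap, against 7.47% of all genes. The median log2 fold change was 0.08 over the members and 0.0080 over all genes tested.

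REG was compared with LFG to show recovery with saline alone. Over 12517 genes, 0 members passed both thresholds, as did 0% of all genes, and DESeq2 and limma with voom called 0 members too, beside 1.42% and 10.3% of all genes. At an unadjusted p under 0.05, 1 member was higher in REG (Lpcat3) and 1 lower (Chka), against 11.3% of all genes. They were also the 2 members without overlap, Lpcat3 higher (8.89% of all genes) and Chka lower (10.1%). Without LFG 3 the picture differed: 4 members passed an adjusted p under 0.05 (16.8% of all genes did), namely Lpcat3, Pemt and Pcyt2, which were higher in REG, and Chka, which was lower. All but Lpcat3 also passed the fold limit, so that 3 members were called, against 10.7% of all genes. With all libraries, limma with voom and quality weights also gave Lpcat3, Pemt and Chka an adjusted p under 0.05 (0.0242, 0.0319 and 0.0405 by limma), as it did to 22.8% of all genes, and their log2 fold changes were under the fold limit. The members' median log2 fold change was 0.23 with all libraries and 0.49 without LFG 3, where that of all genes was -0.07 and -0.0051.

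hADMSCs-Exo was compared with LFG to set exosome-treated recovery against the end of injury. Over 12489 genes, 0 members were called (0% of all genes), also by DESeq2 (0.356% of all genes) and limma with voom (0.00801%), and 0 had an unadjusted p under 0.05, against 5.98% of all genes. Pcyt1a was the member higher without overlap (6.34% of all genes), and 0 members were lower without overlap (5.95%). Without LFG 3, 0 members passed an adjusted p under 0.05, while 7.09% of all genes did and 5.97% also passed the fold limit. Chpt1, Pcyt2, Pemt and Lpcat3 then had an unadjusted p under 0.05, all higher in hADMSCs-Exo, and 28.5% of all genes were under that limit. The members' median log2 fold change was 0.23 with all libraries and 0.51 without LFG 3, against -0.06 and 0.0041 over all genes.

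**Figure D2:**
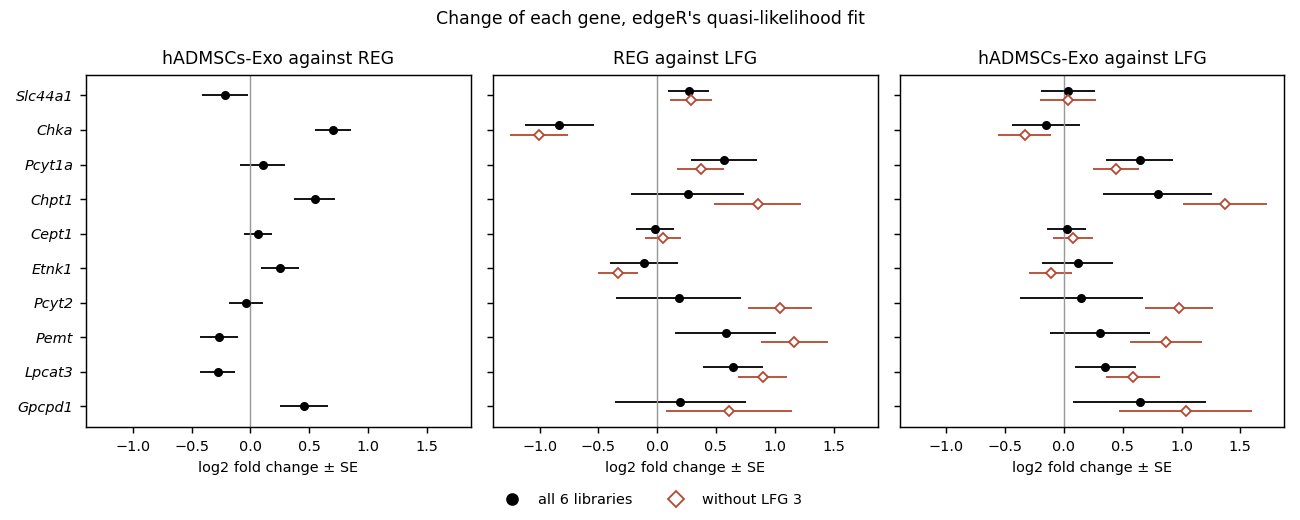
Log2 fold change ± SE of each gene (horizontal axis, positive where the group named first was higher) in the 3 comparisons, from edgeR's quasi-likelihood fit; black points use all 6 libraries and open diamonds leave out LFG 3. Against REG, Chka (0.71) and Chpt1 (0.55) lie farthest to the right, and against LFG the values of Pcyt2 move from 0.14 and 0.18 to 0.98 and 1.04 without LFG 3.

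Slc44a1 (chr4:53440413-53622478, GRCm38, plus strand) encodes a choline transporter-like protein at the entry to the pathway. Its level in normalised CPM was 33.0, 41.3 and 38.3 in REG 1 to 3, 24.6, 40.3 and 32.0 in hADMSCs-Exo 1 to 3, and 28.0, 35.5 and 30.6 in LFG 1 to 3. The groups overlapped in every comparison, and the log2 fold changes were -0.22 ± 0.19 (SE) for hADMSCs-Exo when set against REG, 0.03 ± 0.23 when set against LFG, and 0.27 ± 0.17 between REG and LFG. Without LFG 3 the last 2 values were 0.04 ± 0.24 and 0.29 ± 0.18. Against REG the value was -0.056 without hADMSCs-Exo 1 and -0.41 without hADMSCs-Exo 2.

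Chka (chr19:3851773-3894369, plus strand) had 29.6, 31.8 and 29.2 normalised CPM in hADMSCs-Exo 1 to 3, and 17.7, 21.8 and 16.1 in REG 1 to 3. The lowest hADMSCs-Exo library exceeded the highest REG library, and the hADMSCs-Exo values lay close together. The log2 fold change was 0.71 ± 0.15 (1.63-fold, unadjusted p = 0.0017), with an adjusted p of 0.358 by edgeR's quasi-likelihood test. DESeq2 gave an adjusted p of 0.0454, the lowest over the alternatives, which reached 0.9997, and the difference stayed under the fold limit. In LFG 1 to 3 Chka had 47.4, 29.4 and 22.9 normalised CPM, so that LFG 1 was highest of all 9 libraries and the hADMSCs-Exo values fell inside the LFG range (log2 fold change -0.15 ± 0.29, and -0.33 ± 0.22 without LFG 3). REG lay below LFG by -0.83 ± 0.30 on the log2 scale (edgeR adjusted p = 0.392), by -1.01 ± 0.24 without LFG 3 (edgeR adjusted p = 0.0350) and by -0.48 without LFG 1. When libraries were scaled by their totals alone, Chka overlapped between REG and LFG, and it still did not overlap between hADMSCs-Exo and REG.

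Time of day is not in the labels, and 15 genes of the circadian clock were checked beside Chka. Their summed level overlapped between hADMSCs-Exo and REG, as did 11 of the genes. Cry1, Nfil3 and Ciart were higher in every hADMSCs-Exo library than in every REG library, and Dbp was lower, where the shares over all genes were 8.07% and 7.47%. Nfil3 had 17.8, 28.6 and 18.4 normalised CPM in hADMSCs-Exo and 9.92, 13.2 and 5.79 in REG, and Dbp had 128, 44.2 and 62.6 against 188, 172 and 138. Their part in the differences of the members was not tested.

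Pcyt1a (chr16:32430921-32475070, plus strand) encodes the alpha CTP:phosphocholine enzyme that makes CDP-choline and is regarded as the rate-limiting step. It had 60.2, 84.9 and 76.1 normalised CPM in hADMSCs-Exo 1 to 3, 58.7, 62.0 and 85.2 in REG 1 to 3 and 50.9, 58.7 and 30.8 in LFG 1 to 3. hADMSCs-Exo and REG overlapped (log2 fold change 0.10 ± 0.19). Against LFG all 3 hADMSCs-Exo libraries were higher, by 0.64 ± 0.28 (unadjusted p = 0.058, edgeR adjusted p = 0.805), and by 0.44 ± 0.20 without LFG 3. REG differed from LFG by 0.57 ± 0.28, and by 0.37 ± 0.20 without LFG 3. With libraries scaled by totals alone, hADMSCs-Exo and LFG overlapped. Pcyt1a shares 9.09% of its exon bases with 2210020O09Rik and Slc51a on the opposite strand.

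Chpt1 (chr10:88452745-88504073, minus strand) had 144, 179 and 161 normalised CPM in hADMSCs-Exo 1 to 3, 83.5, 128 and 120 in REG 1 to 3 and 37.0, 89.3 and 152 in LFG 1 to 3. The lowest hADMSCs-Exo library lay above the highest REG library, while LFG 3 lay inside the hADMSCs-Exo range and LFG 1 far below every other library. The log2 fold change against REG was 0.55 ± 0.18 (1.46-fold, unadjusted p = 0.0149, edgeR adjusted p = 0.411), with adjusted p-values from 0.271 to 0.9997 over the alternatives. Against LFG, hADMSCs-Exo differed by 0.80 ± 0.46 with all libraries, by 0.42 without LFG 1 and by 1.37 ± 0.36 without LFG 3 (edgeR adjusted p = 0.0633), and with scaling by totals alone these groups did not overlap. REG differed from LFG by 0.26 ± 0.48, by 0.86 ± 0.37 without LFG 3 and by -0.12 without LFG 1, so its direction depended on single libraries.

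Cept1 (chr3:106502260-106547802, minus strand) was the steadiest member. It had 49.3, 54.5 and 57.2 normalised CPM in hADMSCs-Exo 1 to 3, 50.6, 50.2 and 53.3 in REG 1 to 3 and 46.6, 56.1 and 54.8 in LFG 1 to 3. All groups overlapped, and the log2 fold changes were 0.06 ± 0.12 for hADMSCs-Exo when set against REG, 0.02 ± 0.16 when set against LFG, and -0.02 ± 0.16 between REG and LFG. Without LFG 3 the last 2 values were 0.08 ± 0.17 and 0.05 ± 0.15. Of its exon bases, 24.9% are shared with Dennd2d and Dram2 on the opposite strand, and 7.93% of those of Chpt1 with Sycp3. How counting treated strand is not given in the sources used here, so reads in these stretches are uncertain.

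The ratio of Chpt1 to Cept1 within a library does not depend on the library total. On the FPKM scale it was 1.09, 1.23 and 1.05 in hADMSCs-Exo 1 to 3, 0.618, 0.955 and 0.843 in REG 1 to 3 and 0.298, 0.595 and 1.04 in LFG 1 to 3. Chpt1 exceeded Cept1 in all 3 hADMSCs-Exo libraries, in 0 REG libraries and, among LFG libraries, in LFG 3 alone. Where the ratio crosses 1 depends on the deposited gene lengths, 8324 bases for Chpt1 and 3116 for Cept1. In raw counts Chpt1 was the higher in every library but LFG 1 (879 against 1106). The mean log2 ratio was higher in hADMSCs-Exo than in REG by 0.50 (1.41-fold), with no overlap and p = 0.1 by a two-sided exact permutation test, the smallest p that 3 libraries against 3 allow. Without REG 1 this difference was 0.32. Against LFG the difference was 0.97 (1.96-fold, exact permutation p = 0.1), and LFG 3 lay just below the lowest hADMSCs-Exo library. This difference was 0.51 without LFG 1 and 1.40 without LFG 3. REG and LFG overlapped (difference 0.47, exact permutation p = 0.6), and the difference was 0.0097 without LFG 1 and 0.90 without LFG 3. Genes over 8000 bases, with Chpt1 and Chka but not Cept1 among them, had median log2 deviations of -0.13, -0.13 and -0.0085 in REG 1 to 3. In hADMSCs-Exo 1 to 3 these medians were -0.010, 0.12 and -0.10. The part of gene length in the ratio was not tested.

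**Figure D3:**
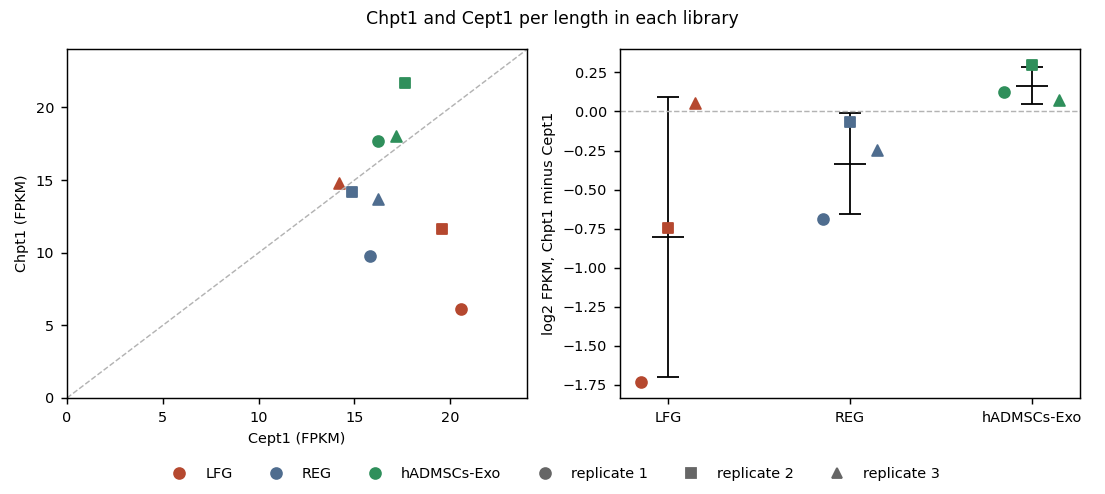
Left, Chpt1 against Cept1 in FPKM in each of the 9 libraries, with the dashed line at equal levels; right, log2 FPKM of Chpt1 minus that of Cept1, with bars for the mean ± SD of 3 libraries. The 3 hADMSCs-Exo libraries lie above the line of equal levels (ratios 1.05 to 1.23) and the 3 REG libraries below it (0.618 to 0.955). On which side of the line a library falls depends on the gene lengths behind FPKM.

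In the ethanolamine branch, Etnk1 (chr6:143167221-143232307, plus strand) encodes ethanolamine kinase 1. It had 58.5, 78.2 and 61.6 normalised CPM in hADMSCs-Exo 1 to 3, 50.6, 51.0 and 64.9 in REG 1 to 3 and 66.7, 77.6 and 37.2 in LFG 1 to 3. The groups overlapped, with a log2 fold change of 0.25 ± 0.16 against REG (0.11 without hADMSCs-Exo 2 and 0.37 without REG 3). For REG against LFG it was -0.11 ± 0.29, and -0.33 ± 0.17 without LFG 3. For hADMSCs-Exo against LFG it was 0.11 ± 0.30, and -0.11 ± 0.19 without LFG 3.

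Pcyt2 (chr11:120610087-120617936, minus strand) encodes the CTP:phosphoethanolamine enzyme that makes CDP-ethanolamine. It had 578, 478 and 496 normalised CPM in hADMSCs-Exo 1 to 3 and 520, 585 and 485 in REG 1 to 3, with a log2 fold change of -0.04 ± 0.15. The LFG libraries had 196, 335 and 874, a 4.47-fold range, with LFG 3 above and the others below all libraries of the other groups. REG differed from LFG by 0.18 ± 0.53 with all libraries, by -0.18 without LFG 1 and by 1.04 ± 0.28 without LFG 3 (edgeR adjusted p = 0.0423). hADMSCs-Exo differed from LFG by 0.14 ± 0.52, and by 0.98 ± 0.29 without LFG 3 (edgeR adjusted p = 0.0812).

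Pemt (chr11:59970614-60046489, minus strand) encodes phosphatidylethanolamine N-methyltransferase, which links both branches in the liver. It had 261, 329 and 364 normalised CPM in hADMSCs-Exo 1 to 3, 347, 423 and 379 in REG 1 to 3 and 125, 228 and 418 in LFG 1 to 3. hADMSCs-Exo and REG overlapped (log2 fold change -0.27 ± 0.16, edgeR adjusted p = 0.607, -0.15 without hADMSCs-Exo 1 and -0.38 without hADMSCs-Exo 3). LFG 1 and LFG 2 lay below all other libraries and LFG 3 near the top. REG differed from LFG by 0.58 ± 0.43 with all libraries, by 0.25 without LFG 1 and by 1.17 ± 0.29 without LFG 3 (edgeR adjusted p = 0.0360), and REG lay above all LFG libraries when libraries were scaled by totals alone. For hADMSCs-Exo against LFG the values were 0.31 ± 0.43 and, without LFG 3, 0.87 ± 0.31 (edgeR adjusted p = 0.120).

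Lpcat3 (chr6:124663027-124704418, plus strand) encodes the acyltransferase that places polyunsaturated fatty acids into lysophosphatidylcholine. It had 94.8, 111 and 110 normalised CPM in REG 1 to 3, 71.6, 96.2 and 92.6 in hADMSCs-Exo 1 to 3 and 47.3, 69.6 and 86.6 in LFG 1 to 3. REG lay above LFG in all libraries, also with scaling by totals alone, by 0.65 ± 0.26 on the log2 scale (unadjusted p = 0.0398, edgeR adjusted p = 0.424). Without LFG 3 the difference was 0.90 ± 0.21 (edgeR adjusted p = 0.0322). hADMSCs-Exo overlapped with both groups, with log2 fold changes of -0.28 ± 0.15 against REG and 0.35 ± 0.26 against LFG (0.59 ± 0.23 without LFG 3). These values were -0.16 without hADMSCs-Exo 1 and 0.15 without LFG 1. Lpcat3 shares 10.2% of its exon bases with Emg1 on the opposite strand.

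Gpcpd1 (chr2:132529082-132587729, minus strand) encodes a phosphodiesterase that releases choline from glycerophosphocholine. It had 119, 190 and 164 normalised CPM in hADMSCs-Exo 1 to 3, 93.2, 132 and 120 in REG 1 to 3 and 28.1, 128 and 147 in LFG 1 to 3. LFG 1 was far below all other libraries, and the groups overlapped in every comparison. The log2 fold change was 0.46 ± 0.20 against REG (unadjusted p = 0.0528, edgeR adjusted p = 0.498). It was 0.64 ± 0.56 against LFG, and 0.20 ± 0.55 between REG and LFG. Without LFG 3 these values were 1.03 ± 0.56 and 0.61 ± 0.53, and without LFG 1 they were 0.20 and -0.25.

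Marker genes moved beside these levels. The summed level of 8 pericentral hepatocyte markers was 8929, 11499 and 12692 normalised CPM in hADMSCs-Exo 1 to 3 and 6346, 7570 and 7482 in REG 1 to 3, without overlap. Most of it was Cyp2e1 (6398, 8300 and 8935 in hADMSCs-Exo, 4483, 5172 and 5208 in REG). Cyp2e1 and Oat were higher without overlap (8.07% of all genes), and the other genes of that list overlapped. In LFG 1 to 3 the sum was 1368, 3317 and 16875, the same order as Chpt1, Pcyt2, Pemt, Lpcat3 and Gpcpd1 had there. The periportal sum (3829, 7657 and 8872) and the hepatocyte sum (80247, 129015 and 143332) had that order in LFG too. Of the pericentral genes, Oat, Axin2 and Lgr5 did not have that order. Periportal markers overlapped between hADMSCs-Exo and REG, and 4 of 7 were higher in REG than in LFG without overlap (8.89% of all genes) and 1 lower (10.1%). The sum of the stellate cell and myofibroblast list was 44.1, 114 and 81.9 in hADMSCs-Exo and 180, 228 and 132 in REG, with 6 of 11 genes lower (7.47% of all genes) and 1 higher (8.07%) without overlap, and 10 of the 11 had a count in all libraries. The hepatocyte sum was lower in hADMSCs-Exo (111835 to 130398) than in REG (158506 to 165015), where it was also above all LFG libraries, and most of it was Alb. Of its 6 genes, between hADMSCs-Exo and REG, Alb and Apoa1 were lower without overlap, Hnf4a was higher (619 to 768 against 494 to 578 normalised CPM), and Apob, Ttr and Serpina1a overlapped. Against LFG, the summed levels of lymphocyte markers (18.1 to 22.7 in hADMSCs-Exo, 3.76 to 16.0 in LFG) and of neutrophil markers (20.8 to 37.9, against 6.17 to 11.1) were higher in hADMSCs-Exo without overlap. Between hADMSCs-Exo and REG both sums overlapped, with Cd3e and Cd8a of the 7 lymphocyte genes higher and Sox9 and Cldn4 of 6 cholangiocyte genes lower without overlap. The sums of macrophage and sinusoidal endothelial markers overlapped in every comparison. Of the macrophage genes, Ccr2 was higher in hADMSCs-Exo (6.87 to 8.32 normalised CPM) than in REG (2.76 to 6.54) without overlap, against 8.07% of all genes. Timd4 was higher in hADMSCs-Exo than in LFG without overlap, against 6.34% of all genes. The part of these markers in the differences of the members was not tested.

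**Figure D4:**
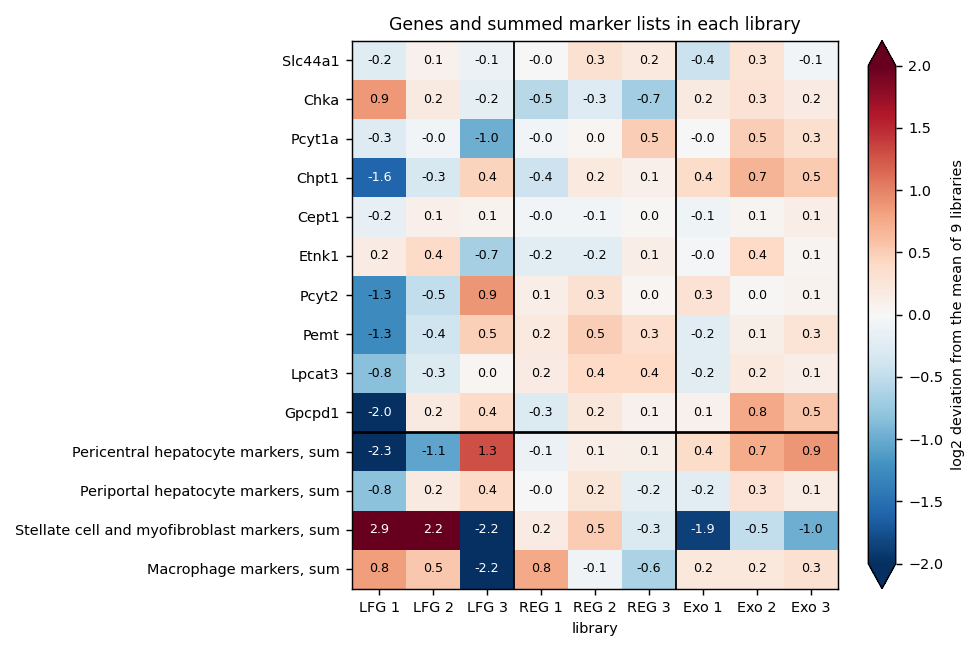
Log2 deviation of each of the 10 genes, and of 4 summed marker lists below the line, from its mean over the 9 libraries (colour, from -2 to 2; the number is printed in each cell). LFG 1 and LFG 3 lie on opposite sides of 0 for Chpt1, Pcyt2, Pemt and Gpcpd1, and pericentral markers read -2.3, -1.1 and 1.3 in LFG 1 to 3.

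Of 45 other genes of the pathway in the table, 36 were tested between hADMSCs-Exo and REG, and 0 were called by edgeR, DESeq2 or limma with voom. At an unadjusted p under 0.05, 6 were higher in hADMSCs-Exo and 2 lower, against 10.0% of all genes, and the list's median log2 fold change was 0.07 against 0.0080 over all genes. In the ethanolamine branch these were Selenoi, an ethanolamine phosphotransferase (0.57 ± 0.23), and Etnppl, which breaks down phosphoethanolamine (0.67 ± 0.24). Lpgat1, a lysophospholipid acyltransferase, had 304, 272 and 263 normalised CPM in hADMSCs-Exo 1 to 3 and 185, 197 and 201 in REG 1 to 3 (0.52 ± 0.13, edgeR adjusted p = 0.380). All of its hADMSCs-Exo libraries were higher than all REG libraries.

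Gde1, a glycerophosphodiester phosphodiesterase (0.71 ± 0.19), and Lpin2, a phosphatidate phosphatase that supplies diacylglycerol (0.80 ± 0.26), were on the same side, as was the choline transporter-like gene Slc44a3 (0.63 ± 0.22). On the other side were Pnpla7, a lysophospholipase (-0.41 ± 0.14), and Pcyt1b, a further gene for the CDP-choline-forming step (-1.76 ± 0.56), which had at most 1.17 normalised CPM in any library. The adjusted p of all 8 was at least 0.380.

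Against LFG, 36 of the other pathway genes were tested for hADMSCs-Exo and 37 for REG, and edgeR called 0 in both, as did DESeq2, while limma with voom called 0 and 4, the latter beside 10.3% of all genes. Lpgat1 (0.93 ± 0.21) and the phospholipase gene Pnpla8 (0.43 ± 0.17) had an unadjusted p under 0.05 for hADMSCs-Exo, both higher. For REG, Pnpla8 was higher (0.46 ± 0.18), and Lpin2 (-1.15 ± 0.34), Lpin1, a further phosphatidate phosphatase gene (-1.50 ± 0.63), and Selenoi (-0.63 ± 0.26) were lower. The list's median log2 fold change was 0.0015 for hADMSCs-Exo and -0.06 for REG, against -0.06 and -0.07 over all genes.

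Leaving out LFG 3 changed these counts, and the genes named here were chosen after their values were seen. Between hADMSCs-Exo and LFG, 2 of 38 genes passed an adjusted p under 0.05, Lpgat1 (0.85 ± 0.19, edgeR adjusted p = 0.0445) and Gdpd1, a lysophospholipase D gene (-1.59 ± 0.36, edgeR adjusted p = 0.0458), and Gdpd1 also passed the fold limit. With the replicate number as a block as well, 0 of them were called. Between REG and LFG, 5 of 38 passed. Among them, Stard10, a phospholipid carrier (0.86 ± 0.23), and the lysophospholipase gene Lypla2 (0.62 ± 0.17) were higher in REG, and Slc44a3 (-1.04 ± 0.25) and Gdpd1 (-2.39 ± 0.61) lower. Slc44a3 and Gdpd1 were among the 3 that also passed the fold limit. Shares over all genes at these thresholds were those given above without LFG 3.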

How the data were processed

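Liver RNA of 9 libraries in 3 groups was analysed. The authors deposited raw counts per gene and, beside them, FPKM, which equals the counts scaled by the deposited gene length (used for the length classes) and the library total with a largest relative difference of 9.19e-07. The submitters' processing notes name cutadapt 1.15, HISAT2 2.0.5, HTSeq 0.9.1, DESeq 1.30.0 and GRCm38, and the counting settings are not given in the sources used here. Columns headed MSC_E were read as hADMSCs-Exo, the only group whose treatment label holds both parts of that name, although the labels do not spell it out and the series also has a cell group, and 0 columns of per-sample values had no sample. Annotation (GENCODE, GRCm38) held 21894 of 21936 genes.

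The members, the lists of pathway and marker genes and the alternatives were chosen with earlier results of these data known. The genes named are all members and the other pathway genes with an unadjusted p under 0.05 in any of the 3 comparisons, with those past an adjusted p of 0.05 without LFG 3 added after their values were seen, and the result of 1 gene is not reported here. Counts were tested by edgeR 4.0.16 (R 4.3.3): quasi-likelihood, two-sided, with TMM factors, filterByExpr for low counts, fits of 6 libraries each (only the pair of groups compared) and Benjamini-Hochberg adjustment over all genes tested. Calls needed an adjusted p under 0.05 together with a log2 fold change of 1 or more in either direction, after the study's thresholds. Normalised CPM used TMM, log2 CPM a prior count of 2 and the Chpt1 to Cept1 ratio FPKM with a pseudocount of 0.1 (log2 values). Exact permutation tests of 3 against 3 libraries cannot go below p = 0.1. Alternatives were other size factors, DESeq2 1.42.0, limma 3.58.1 with voom and quality weights, other filters and pseudocounts, all libraries in 1 fit, the replicate number as a block, an unadjusted p and leaving out single libraries, and scaling by totals alone and the block without LFG 3 were chosen later, with the data already seen.

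Total counts were 13837445 to 19840917, and replicates differed by more than sampling noise (chi-square per gene at least 27.0). Over all genes the spread between libraries therefore sets the precision. The groups share replicate numbers 1 to 3. The same-numbered libraries of hADMSCs-Exo and LFG deviated together across genes (correlations 0.101, 0.308 and 0.180, each over 0.1), and nothing else marks these numbers as pairs.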

Additional observations from a re-analysis of the deposited data

How the results depend on the processing

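With all libraries, 0 members were called in each of the 3 comparisons, also with other size factors, filters, DESeq2, limma with voom, all libraries in 1 fit and the replicate number as a block. DESeq2 called 0.356% to 1.42% of all genes in these comparisons, and limma 0.00801% to 10.3%. The block called 0 members in every comparison. Between hADMSCs-Exo and LFG without LFG 3 it called 0 other pathway genes where 1 was called without it, and it changed no other call where it was run (not between REG and LFG without LFG 3). Same-numbered libraries had correlations of 0.159, 0.00938 and 0.0336 for hADMSCs-Exo and REG, and of 0.415, -0.202 and 0.305 for REG and LFG. The labels do not say whether these numbers mark pairs. At an unadjusted p without a fold limit the members called were 2 for hADMSCs-Exo against REG and 2 for REG against LFG, and the other pathway genes numbered 8 (hADMSCs-Exo against REG), 2 (hADMSCs-Exo against LFG) and 4 (REG against LFG), where the shares of all genes were 10.0%, 5.98% and 11.3%. When single libraries were left out, the calls between REG and LFG ranged from 0 to 3 among members and from 0 to 3 among other pathway genes, and for hADMSCs-Exo against LFG from 0 to 1 among the latter, the highest values being those without LFG 3. Limma with voom called 4 other pathway genes for REG against LFG, beside 10.3% of all genes.

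Scaling by totals alone moved the median of all genes to 0.07, -0.18 and -0.27 between hADMSCs-Exo and REG, hADMSCs-Exo and LFG, and REG and LFG. It reversed Pcyt2 against REG (0.031) and, for hADMSCs-Exo against LFG, Cept1 (-0.093), Etnk1 (-0.072) and Slc44a1 (-0.090). Limma with voom reversed Cept1 (-0.0021), Etnk1 (-0.16) and Slc44a1 (-0.071) in the last comparison, the replicate block without LFG 3 Etnk1 (-0.086), and no filter on low counts Cept1 for REG against LFG (0.026). Leaving out single libraries gave, for hADMSCs-Exo against REG, Pcyt1a -0.011 to 0.29 and Pcyt2 -0.12 to 0.029. For hADMSCs-Exo against LFG it gave Cept1 -0.049 to 0.11, Chka -0.33 to 0.21, Pcyt2 -0.22 to 0.98, Pemt -0.022 to 0.87, Etnk1 -0.11 to 0.33 and Slc44a1 -0.15 to 0.22. For REG against LFG it gave Chpt1 -0.12 to 0.86, Cept1 -0.097 to 0.046, Pcyt2 -0.18 to 1.04, Etnk1 -0.33 to 0.10 and Gpcpd1 -0.25 to 0.61. The cause of these reversals was not tested. Chka and Chpt1 were higher in hADMSCs-Exo than in REG with any library left out (0.61 to 0.82 and 0.39 to 0.65). The lowest count of any member in a library was 256. Where libraries lie close together, counting error need not be small beside their spread. Chka in hADMSCs-Exo 1 to 3 is such a case (500, 528 and 464 counts, 30.2 ± 1.39 normalised CPM).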

Other observations

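Over the 9 libraries, which share groups and the spread of LFG, the log2 CPM of Gpcpd1 was close in pattern to that of Chpt1 (Pearson r = 0.950, rank 12 of 12760 genes), and r was 0.818 for Pcyt2, 0.813 for Pemt and -0.39 for Chka. These values are descriptions over libraries that are not independent of their groups. The genes closest to Chpt1 were Eif3f, Adra1b, Fbxo36, Plcg1 and Nat8 over 9 libraries, and Lrrc3, Homer2, Fdxr, Eif3f and Cyp7b1 over the 8 libraries without LFG 3.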
